A study of Mus musculus with 18 samples.

Results

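The genes described here are 47 interferon-stimulated antiviral genes of the mouse, chosen by name and found by symbol among the 56748 genes of the deposited count table. Of these, 46 passed the filter on low counts, as did 15450 genes in all. The remaining one, Ifi44l, was at 0 in all 18 libraries and was not tested. RNA had been taken from macrophages grown out of C57BL/6J bone marrow with L929 cell supernatant, which supplies the growth factor M-CSF. The marrow came from wild-type or TLR4-knockout mice, and on day 7 the cells were switched to serum-free IMDM for 24 h with water, GM or MDP. GM is GlcNAc-MurNAc, the disaccharide unit of bacterial peptidoglycan, and MDP is muramyl dipeptide. The labels spell MDP with D-alanine and L-glutamine, whereas the ligand known for NOD2 carries L-alanine and D-isoglutamine, so the stereochemistry of the compound is not settled here. Doses, the deleted part of the Tlr4 gene and the age and sex of the mice are not given in the sources used here. The series title names GM as an agonist of TLR4, the lipopolysaccharide receptor, so that the comparisons of GM between genotypes address whether the response of these genes needs that receptor. Each of the 6 groups held 3 libraries labelled as biological replicates. Since nothing says that they came from separate animals or cultures, p-values measure the spread between these libraries, which may be technical.

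Type I interferons bind the receptor IFNAR and activate the kinases JAK1 and TYK2. These switch on transcription factors that bind the interferon-stimulated response element (ISRE) near their target genes. The products of those genes bind foreign RNA, tag proteins with the ubiquitin-like modifier ISG15, cut RNA, alter nucleotide pools or hold virus at membranes. In macrophages, TLR4 reaches this program through the adaptors TRAM and TRIF, IRF3 and secreted interferon beta. NOD2 senses muramyl dipeptide in the cytosol and signals mainly through RIPK2.

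The ISRE was searched in the promoters of the members. They were chosen by name as interferon-stimulated genes. A high share with a match can come from that choice and is not a result about these libraries. RefSeq promoter windows (GRCm38.p6, 250 bases before to 50 after an annotated start) matched 36 of the 47 members. The letters GAAANNGAAA, or TTTCNNTTTC on the other strand, occurred in windows of 17 of the 36 members (47.2%), against 3.99% of 27025 genes with a window. The interferon-gamma activated sequence, searched as TTCNNNGAA, was found for 19.4% of the members and 9.55% of all genes. A kappa B-like motif, searched as GGGANNNTCC and its reverse complement GGANNNTCCC, was found for 5.56% and 5.21%. Of 28 ISRE matches in member windows, 2 overlapped a match to another of these motifs. The stretches below belong to members that lead a group of related function, together with the closely related pair Ifit3 and Ifit3b, and show ISRE matches that lie before the start. Each is written 5′ to 3′ on the strand of the gene, with matches and runs of overlapping matches in capitals.
Isg15 (chr4:156200855-156200916, minus strand): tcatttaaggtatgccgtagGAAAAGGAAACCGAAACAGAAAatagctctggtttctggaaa
Ifit1 (chr19:34640765-34640833, plus strand): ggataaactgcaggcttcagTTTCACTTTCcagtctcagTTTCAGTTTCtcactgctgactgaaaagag
Ifit3 (chr19:34583353-34583436, plus strand): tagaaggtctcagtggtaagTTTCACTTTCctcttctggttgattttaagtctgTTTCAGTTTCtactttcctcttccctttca
Ifit3b (chr19:34607749-34607832, plus strand): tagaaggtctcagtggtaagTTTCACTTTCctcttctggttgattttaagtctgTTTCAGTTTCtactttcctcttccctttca
Rsad2 (chr12:26456543-26456592, minus strand): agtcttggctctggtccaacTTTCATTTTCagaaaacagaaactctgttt
Oas1a (chr5:120907526-120907565, minus strand): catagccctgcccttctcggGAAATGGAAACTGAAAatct
Trim30a (chr7:104465200-104465249, minus strand): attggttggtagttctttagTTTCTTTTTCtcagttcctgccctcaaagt
The Isg15 stretch holds 3 overlapping matches that begin 78, 72 and 66 bases before the start, and Ifit1 holds 2 separate ones. Ifit3 and Ifit3b share an unbroken run of 169 of 300 bases, shifted by 32 bases against their annotated starts. Reads that such pairs share could have been split between them, so Ifit3 with Ifit3b, Oas1a with Oas1g, Trim30a with Trim30d and Phf11b with Phf11d are uncertain as single genes. The windows of Oasl1, Cmpk2 and Epsti1, whose values stand out below, hold no match to these letters. The 17 members with a match and the 18 tested members without one had similar median differences between GM and water in wild-type cells, 1.37 and 1.45 on the log2 scale. For MDP against water the medians were 1.76 and 1.69 in wild type and 0.58 and 0.42 in knockout. They were -0.37 and -0.18 for GM against MDP in wild type, and 0.94 and 0.57 for knockout against wild type in water. The ranges of both sets overlapped in each of these comparisons, and the difference between the sets was not tested.

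By position in the count table (GRCm39), the members lie on 16 chromosomes and 25 of the 47 have another member within 100 kb. These neighbours include the Ifit genes on chromosome 19, the Oas genes on chromosome 5, Rsad2 and Cmpk2 on chromosome 12 and Mx1 and Mx2 on chromosome 16. Parp9 and Dtx3l overlap on opposite strands, and whether strand was used in counting is not given in the sources used here, so their reads cannot be fully told apart.

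Total counts ranged from 15532973 to 21128507 per library, and the members took 0.211% to 0.841% of them. Tlr4 itself was at 117 to 230 CPM (counts scaled to a common library size with TMM factors) in the 9 wild-type libraries and at 36.5 to 52.9 CPM in the 9 knockout libraries, so that its RNA was lower but present. The spread between replicates, as edgeR's biological coefficient of variation, reached 35.4% for wild-type water and 27.6% for wild-type GM but only 5.71% to 8.09% in the other 4 groups. All 12 macrophage markers were present in every group, with a summed level of 24770 to 33000 CPM. In bulk RNA, fewer cells of a type and less RNA per cell cannot be told apart. The sum of 7 conventional dendritic cell markers was higher with both ligands than with water in both genotypes, but single genes of the list differed. Of 6 tested in wild type, 1 passed as higher with GM, and 2 as higher and 1 as lower with MDP. In knockout 0 of 6 passed with GM, and 3 passed as higher and 1 as lower with MDP. The sum spanned 91.5 to 236 CPM with water, 538 to 667 CPM with GM and 768 to 849 CPM with MDP in wild type. In knockout it spanned 134 to 157 CPM with water, 167 to 209 CPM with GM and 320 to 423 CPM with MDP. The plasmacytoid dendritic cell markers summed to 13 to 41.5 CPM over all libraries, and their defining gene Siglech was at 0 in wild-type GM, wild-type MDP and knockout MDP. Their sum in knockout was nevertheless 35.2 to 41.5 CPM with MDP and 31.9 to 35.3 CPM with water, and 1 of 5 tested genes passed as higher. In water 1 of 5 was also higher in knockout than in wild type. Stromal markers summed to 441 and 481 CPM in wild-type water replicates 2 and 1, to 119 CPM in replicate 3, and to 48.8 to 187 CPM elsewhere. Proliferation genes summed to 78.5 CPM in wild-type water replicate 3, against 231 and 270 CPM in the other two. The part of these markers in the results was not tested.

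The level of the members as a group was taken in each library as the median over 46 genes of the log2 level relative to the gene's mean over all libraries. In wild-type water it was -0.82, -0.45 and -1.74 in replicates 1, 2 and 3. With GM it was 0.25, 0.88 and 0.04, and with MDP 0.79, 0.82 and 0.74. Every wild-type library with a ligand thus lay above every wild-type water library. In knockout cells the level was -0.18, -0.23 and -0.02 in water, -0.09, -0.59 and -0.61 with GM, and 0.26, 0.42 and 0.30 with MDP. The order of the group means was wild-type water (-1.002 ± 0.664, SD, n = 3), knockout GM (-0.43 ± 0.30), knockout water (-0.14 ± 0.11), knockout MDP (0.33 ± 0.08), wild-type GM (0.39 ± 0.44) and wild-type MDP (0.79 ± 0.04). Knockout GM overlapped knockout water and wild-type water, and wild-type GM overlapped both MDP groups.

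**Figure D1:**
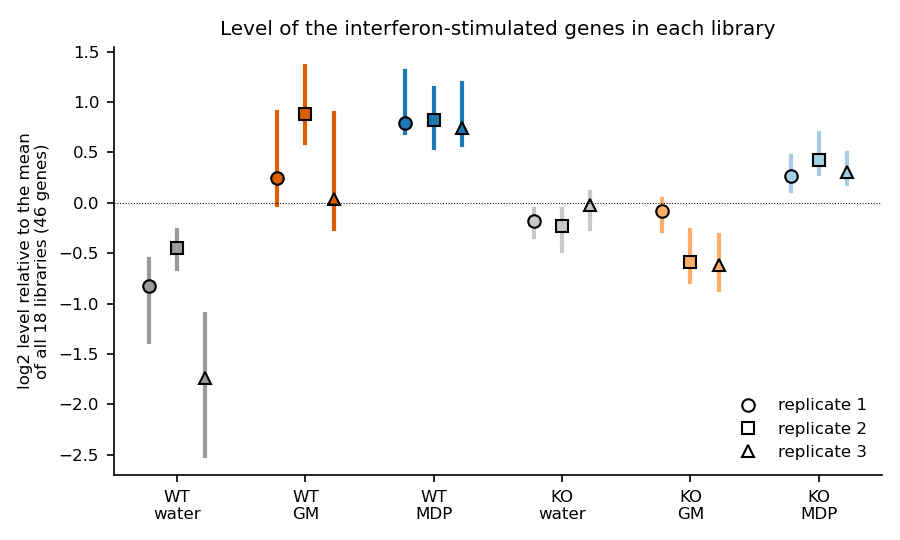
Each point is 1 library and plots the median log2 level of 46 interferon-stimulated genes relative to each gene's mean over the 18 libraries, with a bar from the lower to the upper quartile of the genes. WT is wild type and KO is TLR4 knockout. Wild-type water replicate 3 is the lowest library at -1.74, the wild-type MDP libraries lie together at 0.74 to 0.82, and knockout GM replicate 1 lies at -0.09 above the other knockout GM libraries.

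Some libraries shifted most members together. Wild-type water replicate 3 had the lowest value of its group for 38 of 46 members, GM replicate 2 the highest of the wild-type GM group for 39, and knockout GM replicate 1 the highest of its group for all 46. Several members nevertheless departed from the level of their own library by more than 1 on the log2 scale. In wild-type water replicate 3, 9 members lay below it, from Mx1 at -1.11 to Ifit1 at -2.95 and Ifit3 at -3.51. In the same library 6 lay above it, among them Phf11d at 1.36, the RNA-editing enzyme Adar at 1.32 and Rsad2 at 1.08. Wild-type GM replicates 1 and 3 had 8 and 11 members above their level, led by Oasl1 (2.17 and 2.62), Rsad2 (1.68 and 2.23) and Cmpk2 (1.47 and 1.98). GM replicate 2 had 3, Ifi44, Oasl1 and Mx1. In knockout cells only 3 such departures occurred in 9 libraries, Oasl1 in 2 of them and Ifi44 in 1, all below the level.

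Per kilobase of transcript the most abundant members were the same in all 6 groups. Ifitm3, which blocks fusion of viruses with endosomes, ranked first, from 310 ± 60.1 CPM per kilobase in knockout GM to 892 ± 37.0 in wild-type MDP (SD, n = 3). Lgals3bp, a secreted glycoprotein, Bst2 (tetherin, which holds budding virions at the cell surface) and Ly6e filled ranks 2 to 4 in every group. Mx2 was among the lowest 4 of the 47 in all groups, counting Ifi44l at 0, at 0.701 ± 0.427 in wild-type water and 4.33 ± 0.851 in wild-type GM.

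In wild-type cells GM gave higher levels than water for all 46 members, but only 6 passed the test when the 6 compared libraries were fitted (Benjamini-Hochberg adjusted p below 0.05, edgeR quasi-likelihood). Among all genes 0.608% passed, all of them higher. The 6 were Isg15, its protease Usp18, the ligase Herc6, Oasl1, Rsad2 and Phf11d. The median log2 fold change over the members was 1.40 (2.63-fold), against -0.04 over all genes tested, and 30 members were at least 1 on the log2 scale. The 3 GM libraries lay above the 3 water libraries for 35 of 46 members, as they did for 7.27% of all genes. A fit of all 18 libraries, which pools the unequal spreads, passed 34 members, with 4.72% of all genes. Leaving out one library changed the count to 1, 2 or 12 without water replicate 1, 2 or 3 and to 0, 2 or 1 without GM replicate 1, 2 or 3. Without water replicate 3 the 12 stood against 1.81% of all genes, where leaving out any other library left 0% to 0.272% of all genes, and the median was 1.03.

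Isg15, the ubiquitin-like modifier, was at 5.85, 11.5 and 6.36 CPM in wild-type water and at 80.2, 73.5 and 94.5 with GM. The groups were far apart, with a log2 fold change of 3.39 ± 0.29 (SE, adjusted p = 0.0118), which stayed at 3.24 without water replicate 3. Oasl1, an OAS-like protein without synthetase activity, rose from 2.98, 4.93 and 5.09 CPM to 60.5, 46.5 and 71.3 (log2 fold change 3.78 ± 0.28, adjusted p = 0.00611). Rsad2 (viperin), which makes a chain-terminating nucleotide, was at 26.3, 46.7 and 75.6 CPM in water and 457, 332 and 576 CPM with GM. Here water replicate 3 was the highest of its group, unlike for most members, and the log2 fold change was 3.20 ± 0.43 (adjusted p = 0.0369). Usp18, which removes ISG15 and restrains the receptor IFNAR, went from 34.2, 47.9 and 35.5 CPM to 96.3, 141 and 99.9 (1.52 ± 0.21, adjusted p = 0.041). Of the 6 members that passed, Usp18 alone was lost without water replicate 3, at a log2 fold change of 1.43 (adjusted p = 0.0516).

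The Ifit genes, whose products bind viral RNA, had the highest median log2 fold change of the role groups, 3.50, without passing the test. Ifit1 was at 9.59, 19.5 and 1.94 CPM in water and at 156, 132 and 197 CPM with GM, a log2 fold change of 3.97 with a 95% interval from 2.16 to 5.78 (adjusted p = 0.125). Ifit3 was at 6.81, 12.2 and 0.775 CPM in water and 81.6, 81.4 and 97.5 with GM. For both genes all GM libraries lay above all water libraries, and the water libraries spanned a wide range, with replicate 3 lowest. Without that library all 4 Ifit genes passed, with log2 fold changes of 3.45 for Ifit1 and 3.17 for Ifit3. The lowest log2 fold changes were 0.43 for Tor3a, 0.47 for Eif2ak2 (PKR, a kinase that senses double-stranded RNA) and 0.49 for Ly6e, none of which passed.

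MDP gave higher levels than water in wild-type cells for 46 of 46 members, and 36 passed, where 8.34% of all genes passed in either direction and 4.62% were higher. The median log2 fold change was 1.77 (3.40-fold), and all 46 had MDP libraries above every water library, as did 18.8% of all genes. By role, all 4 Ifit genes, all 6 of the OAS family, Rsad2 with Cmpk2 and 4 of the 5 genes of ISG15 conjugation rose. The 10 that did not pass included Mx1, Samd9l, Rtp4, Dhx58 and Parp9, for which water replicate 3 lay far under its 2 companions. Ifitm3 rose from 229, 276 and 177 CPM to 633, 587 and 594 CPM (log2 fold change 1.41, adjusted p = 0.0068). With all 18 libraries in the fit, 46 members and 24.7% of all genes passed. Without water replicate 3 all 46 passed, against 35.5% of all genes, with a median of 1.51. Without replicate 1 of water or replicate 1, 2 or 3 of MDP the count was 16, 11, 8 and 12, against 3.64%, 1.55%, 1.21% and 1.56% of all genes.

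**Figure D2:**
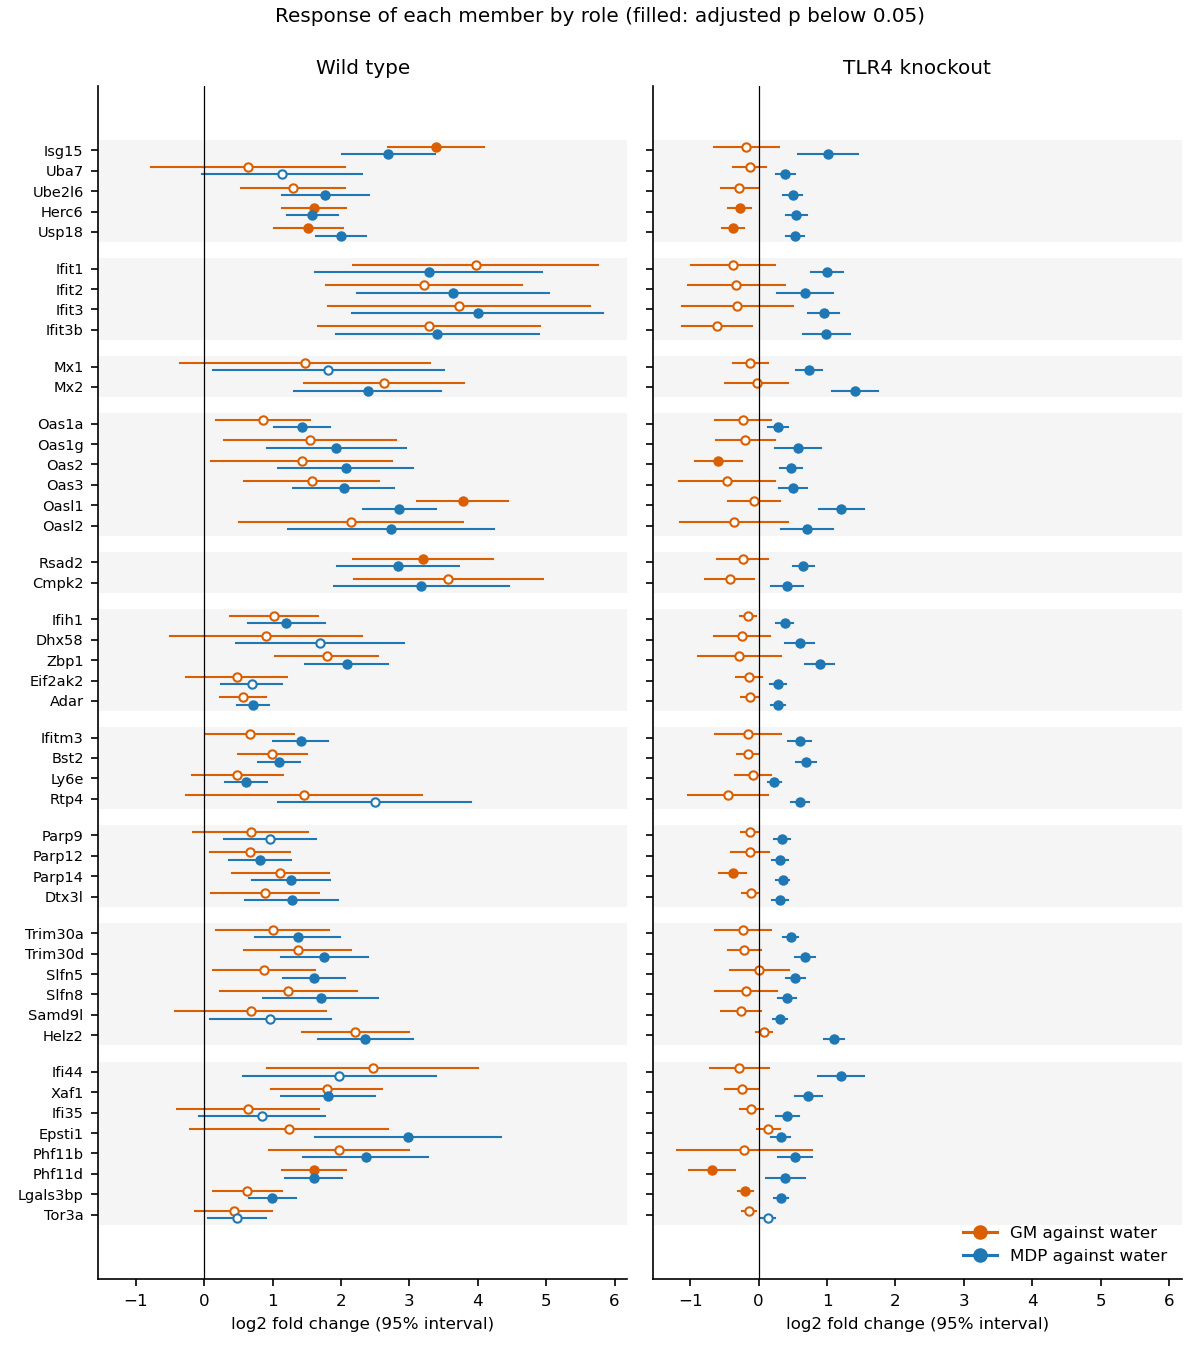
The log2 fold change of each member against water, with its 95% interval, is drawn for GM (orange) and MDP (blue) in wild-type cells on the left and knockout cells on the right. Shaded blocks hold members of one role and filled points passed at an adjusted p below 0.05. In wild type all points lie above 0 with wide intervals, while in knockout the GM points lie near 0, median -0.21, and the MDP points near their median of 0.53.

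**Figure D3:**
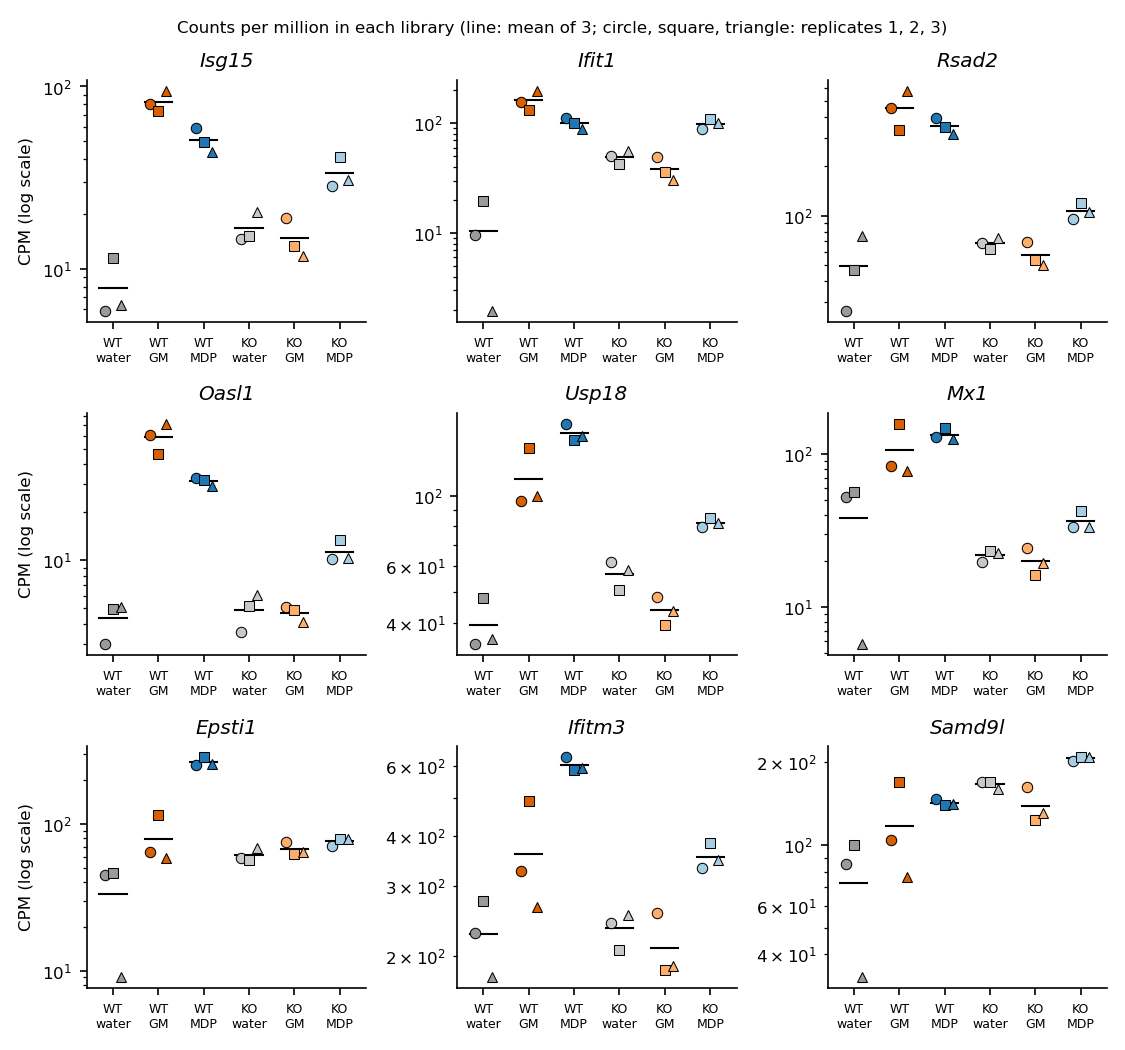
CPM are shown on a log axis for 9 members in each of the 18 libraries, with a line at the mean of the 3 replicates. Isg15, Oasl1 and Rsad2 are highest with GM in wild type, Epsti1 stands out with MDP in wild type, and wild-type water replicate 3 (triangle) is lowest for Mx1, Epsti1 and Samd9l.

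The ligands were compared with each other without the water libraries, at doses that are not stated, so the values describe these treatments and not equal amounts. Both comparisons with water above share their water libraries. The member median was -0.29 on the log2 scale, that is slightly lower with GM, and 37 of 46 members were below 0. Of the members 4 passed, against 10% of all genes: 3 were higher with GM (5.59% of all genes) and 1 was lower (4.41%). GM libraries lay wholly above the MDP libraries for 4 members and wholly below for 11, against 20.1% and 16.7% of all genes. The fit of all 18 libraries passed 6 members and 19.4% of all genes, with Ifit1 no longer among them. Isg15 was at 58.8, 49.9 and 43.9 CPM with MDP, under all 3 GM values, a log2 difference of 0.70 ± 0.14 (SE, adjusted p = 0.024). Ifit1 differed by 0.69 ± 0.16 (adjusted p = 0.0361) and Oasl1 by 0.92 ± 0.16 (adjusted p = 0.0155). Oasl1 departed from the member median by more than 1.

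Epsti1, an interferon-induced gene named for epithelial-stromal interaction, went the other way. It was at 254, 287 and 257 CPM with MDP and at 64.6, 115 and 59.1 CPM with GM, so that the groups did not overlap and the log2 difference was -1.74 ± 0.25 (adjusted p = 0.0102). In the other 12 libraries it did not exceed 78.9 CPM. For members with a difference near 0 the intervals bound it only loosely. Herc6 differed by 0.03 with a 95% interval from -0.27 to 0.33, and Bst2 by -0.10 with an interval from -0.50 to 0.30. The count depended on GM replicate 2, the highest of its group for most members. Without it 38 members passed, 5 higher and 33 lower with GM, against 29% of all genes, and the median was -0.55. Without GM replicate 1 a single member passed, against 2.23% of all genes, and without any one of the MDP libraries none did, against 1.35% to 1.46%.

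**Figure D4:**
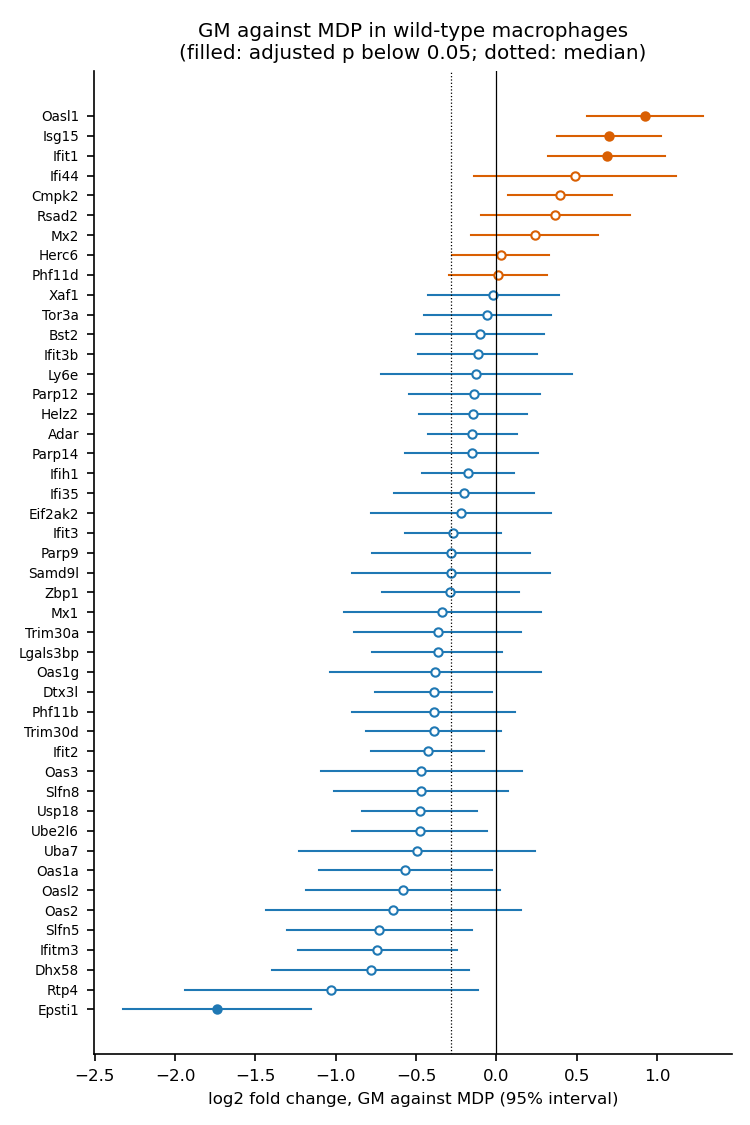
The log2 fold change of GM against MDP in wild-type macrophages is drawn for 46 members in order, with 95% intervals. Points to the right are higher with GM and filled points passed. Oasl1, Isg15 and Ifit1 lie at 0.92, 0.70 and 0.69, Epsti1 at -1.74, and the dotted line marks the median of -0.29.

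In knockout cells no member passed as higher with GM. Of the 46 members 6 passed as lower, where 7.86% of all genes passed and 4.24% were lower, and the member median was -0.21. The 6 were Usp18 (-0.38), Herc6 (-0.28), Oas2 (-0.59), Parp14 (-0.38), Phf11d (-0.68) and Lgals3bp (-0.19). Isg15 was at 14.7, 15.2 and 20.4 CPM in knockout water and at 19.0, 13.4 and 11.8 CPM with GM, groups that overlapped. Usp18 was at 62.0, 50.7 and 58.3 CPM in water and 48.1, 39.4 and 43.5 with GM, which did not overlap. GM libraries lay below every water library for 6 members, as they did for 12.4% of all genes. The fit of all 18 libraries with edgeR passed 0 members and 0.0194% of all genes, while in the fit of the 6 compared libraries 13 of 46 members had an unadjusted p below 0.05, as did 19.4% of all genes. Knockout GM replicate 1 stood apart: without it 36 members passed as lower, against 8.01% of all genes, with a median of -0.38, while without GM replicate 3 or water replicate 3 the count was 2 and 1, against 5.39% and 5.98% of all genes.

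MDP raised 45 of 46 members in knockout cells, where 19.2% of all genes passed and 9.17% were higher. The median log2 fold change was 0.53 (1.45-fold), and 5 members reached 1. The 45 also had MDP libraries above every water library, as did 15.5% of all genes. Isg15 rose to 28.5, 41.2 and 30.9 CPM (log2 fold change 1.01, adjusted p = 0.0085). Mx2 rose most, from 3.72, 3.91 and 4.41 CPM to 9.09, 13.4 and 9.22 (1.41, adjusted p = 1.37e-08), and the others at or above 1 were Oasl1, Ifi44, Helz2 and Isg15. Only Tor3a did not pass, at 0.13 (adjusted p = 0.0748). Leaving out any one library left 40 to 45 members passing, against 15.4% to 19.2% of all genes. The fit of all 18 libraries, which applies the wide wild-type spread to these libraries, passed 6 members, Isg15, Oasl1, Mx2, Helz2, Herc6 and Bst2, against 2.76% of all genes. All 8 proliferation genes were lower with MDP and with GM in knockout cells, and their part in these values was not tested.

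The difference between genotypes in the response was tested as an interaction over 12 libraries. For GM all 46 members had a larger response in wild type, 15 of them past the threshold, where 0.939% of all genes passed and 0.926% were larger in wild type. The median difference of the responses was 1.59 on the log2 scale. The 15 held all 4 Ifit genes, from 3.53 for Ifit2 to 4.35 for Ifit1, with Cmpk2 at 3.996, Oasl1 at 3.85, Isg15 at 3.58 and Rsad2 at 3.44. Usp18, Herc6, Zbp1, Bst2, Helz2, Xaf1 and Phf11d were the others. For Isg15 the adjusted p was 7.82e-04, and for Oasl1 it was 3.36e-04. Neither Mx gene, no PARP gene and not Dtx3l passed. Without wild-type water replicate 3 the count was 20, against 3.34% of all genes, the fit of all 18 libraries gave 25 against 1.86%, and without wild-type water replicate 1 it was 8 against 0.68%. Leaving out any one of the 6 knockout libraries gave 7 to 9, against 0.46% to 0.583% of all genes, and leaving out wild-type GM replicate 1 or 3 gave 8 or 9, against 0.641% or 0.725%.

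The MDP response was also larger in wild type for all 46 members, 24 of them past the threshold, against 7.97% of all genes, 4.63% being larger in wild type. In the fit of 18 libraries 19 members and 7.91% of all genes passed. The median difference was 1.09. Ifit3 (3.06), Ifit2 (2.96), Cmpk2 (2.77) and Epsti1 (2.67) differed most. Epsti1 was at 58.4, 56.6 and 68.5 CPM in knockout water and 70.9, 78.7 and 78.9 with MDP, and its log2 fold change with MDP was 0.32 in knockout and 2.98 in wild type (adjusted p of the difference 0.0206). Ifitm3 differed by 0.81 (adjusted p = 0.0264). Without wild-type water replicate 3 the count was 38, against 26.3% of all genes, and leaving out any one MDP or knockout library gave 10 to 14, against 4.19% to 4.96%. A larger response was not always a higher level with MDP. Mean CPM with MDP in wild type and knockout were 100.5 and 99.0 for Ifit1 and 79.5 and 77.0 for Zbp1. They were 142 and 207 for Samd9l but 266 and 76.2 for Epsti1. Of all groups, wild-type MDP had the highest mean for 32 of 46 members, wild-type GM for 9 and knockout MDP for 5. The genotypes were not compared by a test under MDP.

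These interactions include the levels without ligand. In water, 43 of 46 members were higher in knockout cells, with a median log2 fold change of 0.66, but only 4 passed, all higher, where 14.6% of all genes passed and 6.32% were higher. The 4 were Oas1a (0.77), Slfn5 (0.94), the Z-form nucleic acid sensor Zbp1 (1.15) and Lgals3bp (0.72). Without wild-type water replicate 3, Slfn5 no longer passed, at 0.82 (adjusted p = 0.0694). Fitting all 18 libraries together passed 27 members and 33.1% of all genes. The knockout libraries lay above every wild-type library for 33 of 46 members, against 22% of all genes. Oas1a was at 46.6, 59.9 and 38.2 CPM in wild-type water and at 80.4, 76.0 and 90.3 CPM in knockout water, which did not overlap (adjusted p = 0.0334). Zbp1 was at 17.5, 26.1 and 12.8 CPM in wild type and 40.2, 39.9 and 44.7 CPM in knockout, also without overlap (adjusted p = 0.0305). The Ifit genes had the highest values, from 1.82 for Ifit2 to 2.27 for Ifit1, and did not pass (adjusted p = 0.0732 for Ifit1). Marker lists differed in the same comparison. Neutrophil markers summed to 22.05 to 59.1 CPM in wild-type water and 122.7 to 196 CPM in knockout water, with 3 of 8 tested genes higher in knockout. B cell markers summed to at most 1.27 CPM in wild type and to 4.41 to 6.40 CPM in knockout, with 4 of 5 higher. Proliferation genes summed to 641 to 685 CPM in knockout water, above all wild-type water libraries, with 5 of 8 higher, and 9 of 11 stromal markers were lower. The part of these lists in the values of the members was not tested.

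Mx1 departed from the other members. It was at 52.3, 55.9 and 5.70 CPM in wild-type water and at 19.6, 23.1 and 22.6 CPM in knockout water, so that 2 wild-type libraries lay above and 1 below all knockout libraries (log2 fold change -0.80, adjusted p = 0.47). With MDP it reached 128, 147 and 125 CPM in wild type and 33.2, 42.1 and 33.3 CPM in knockout. Ifi44 (-0.44) and Phf11d (-0.34) were the other members below 0. Without wild-type water replicate 3, 28 members passed, 25 higher and 3 lower in knockout, against 46.7% of all genes, and the median was 0.46. The 3 lower were Mx1 (-1.31), Ifi44 (-0.89) and Uba7 (-0.34), the activating enzyme of ISG15, whose value over all 3 libraries was 0.08. Without wild-type water replicate 2 the count was 10, against 6.45% of all genes. Without wild-type water replicate 1 or any one knockout water library it was 0, against 2.13% to 8.52%.

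**Figure D5:**
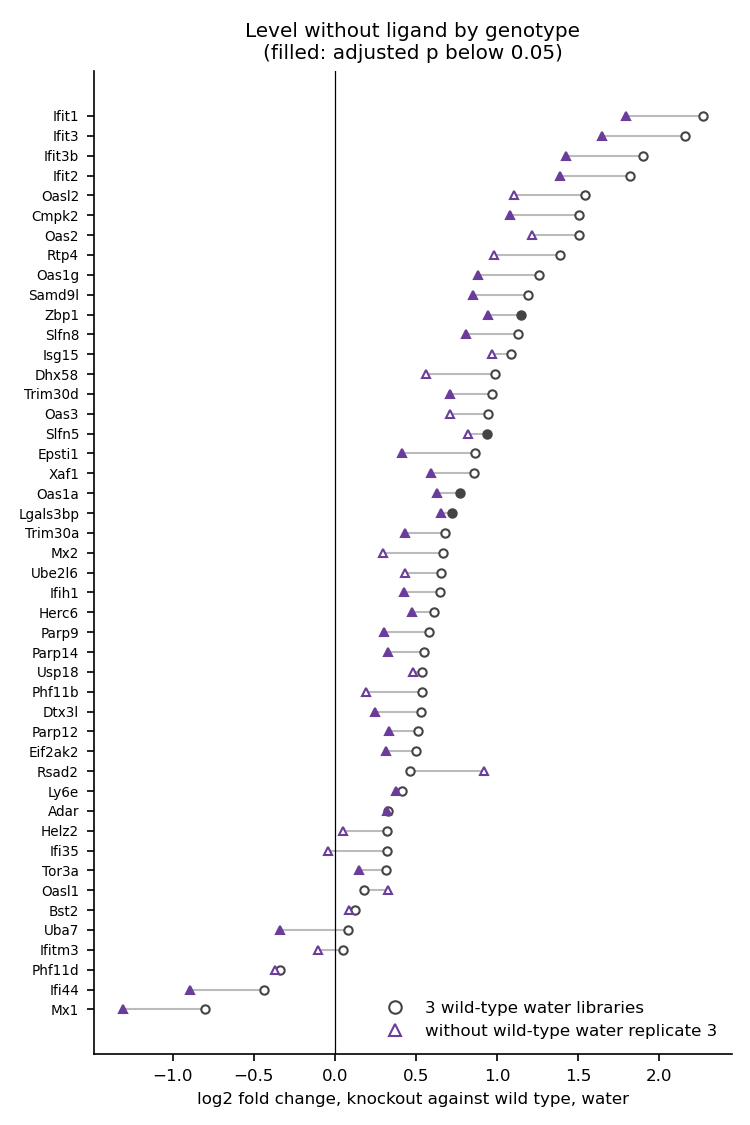
The log2 fold change of knockout against wild type in water is drawn for 46 members with all 3 wild-type water libraries (circles) and without wild-type water replicate 3 (triangles). Filled points passed at an adjusted p below 0.05. Most members move to the left when the replicate is left out, and the median goes from 0.66 to 0.46, with Mx1 lowest at -0.80 and -1.31.

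Of the ligands of the pathway, none of 8 listed genes passed the filter. Ifnb1 was at 0 in the 3 wild-type water libraries, at 0 to 0.11 CPM with GM and at 0.21 to 0.45 CPM with MDP, which is 4 to 7 counts per library. In knockout it was at 0 to 0.062 CPM in water, 0 to 0.179 CPM with GM and 0.054 to 0.120 CPM with MDP. Ifna1, Ifna2, Ifna4, Ifna5, Ifnl2 and Ifnl3 were at 0 in all 18 libraries, at a single time of 24 h. A count of 0 allows up to 3 counts in a library, which is 0.134 to 0.194 CPM here and covers counting error only. Of 9 receptors and kinases, none passed with GM or MDP against water in wild type. In knockout cells 4 rose with GM, Ifnar1, Ifnar2, Ifngr1 and Jak2, by 0.18 to 0.26 on the log2 scale. With MDP in knockout 3 rose and 1 fell, and the kinase Jak2 rose with MDP by 0.95 on the log2 scale (adjusted p = 2.67e-13).

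Among the transcription factors of the pathway, Irf7, which drives interferon alpha genes, passed with both ligands. It was at 10.1, 26.1 and 13.5 CPM in wild-type water, 176, 171 and 197 CPM with GM, and 201, 171 and 156 CPM with MDP. The groups did not overlap, and the log2 fold changes were 3.46 for GM (adjusted p = 0.0213) and 3.42 for MDP (adjusted p = 0.00466). Irf8 rose as well, by 1.47 with GM and 1.65 with MDP. With MDP in wild type Stat2 (1.04) and Irf1 (1.67) also passed, and in knockout Irf7 passed as higher at 0.97 (adjusted p = 0.0356). Stat2 (0.61), Irf8 (0.47), Irf1 (0.30) and Irf9 (0.22) also passed as higher with MDP in knockout. None of these 5 genes passed with GM in knockout. The responses of Irf7, Irf1 and Irf8 were larger in wild type, by 3.58, 1.30 and 1.43 for GM and by 2.45, 1.37 and 1.18 for MDP.

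Of 5 inhibitors, Socs1 and Socs3, which block JAK signalling, passed between the 2 ligands, higher with GM than with MDP in wild type by 2.06 and 3.26 on the log2 scale. Socs3 was at 71.6, 62.4 and 77.0 CPM in wild-type water, 107, 93.3 and 122 CPM with GM and 11.7, 11.0 and 10.9 CPM with MDP. It fell by 2.65 with MDP on the log2 scale (adjusted p = 7.72e-04), and Socs1 fell by 1.45 (adjusted p = 0.0024). In knockout cells both rose with MDP, Socs3 by 0.91 and Socs1 by 0.79, and Socs3 rose by 0.20 with GM. For MDP the difference between genotypes was -3.56 for Socs3 (adjusted p = 1.87e-07) and -2.25 for Socs1 (adjusted p = 3.36e-05). The level in water enters the value for Socs1. In wild type Socs1 was at 34.6, 32.3 and 39.0 CPM in water and 12.7, 13.8 and 12.3 CPM with MDP. In knockout it was at 9.7, 11.3 and 9.6 CPM in water and 16.1, 17.7 and 19.5 CPM with MDP. Of 11 upstream sensors and adaptors, Ddx58 (RIG-I, 1.55) and Ikbke (1.79) rose with MDP in wild type. The same genes rose by 0.40 and 0.41 with MDP in knockout, from higher levels in water. Ikbke spanned 14.7 to 35.2 CPM in wild-type water and 77.3 to 85.0 CPM in knockout water. With MDP it spanned 91.4 to 95.3 CPM in wild type and 101 to 112 CPM in knockout. Ddx58 spanned 24.5 to 68.7 and 86.3 to 97.3 CPM in water, and 131 to 143 and 113.5 to 124 CPM with MDP. None of the 11 passed with GM in wild type. In knockout others fell, Ticam1 (-0.25), Tlr7 (-0.17) and Tlr9 (-0.31) with MDP, and Sting1 (-0.28), Ticam2 (-0.19), Tlr7 (-0.25) and Tlr9 (-0.24) with GM.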

How the data were processed

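Per the labels, poly(A)-enriched directional libraries were sequenced from the 18 samples. Per the submitters' processing notes, reads were aligned with HISAT2 2.0.5 to GRCm39 and counted with featureCounts 1.5.0-p3; the strand and multimapping settings are not given in the sources used here. The authors' deposited table holds raw counts per gene, and the deposited FPKM table was not used. Tests used edgeR 4.0.16 under R 4.3.3 (TMM factors, filterByExpr minimum 10, robust quasi-likelihood tests, 2-sided, Benjamini-Hochberg over all genes tested, threshold 0.05). Each comparison was fitted on its own libraries (6, or 12 for interactions), because the spread differed between groups. Fits that hold wild-type water or wild-type GM together with a less variable group still pool unequal spreads. A fit of all 18, limma 3.58.1 voom with a variance per group, DESeq2 1.42.0, other scalings, no filter, a replicate block and leaving out each library were alternatives. Fits were tested on simulated data drawn with the same spread in every group, so those runs do not cover the unequal spreads seen here. CPM use TMM-scaled library sizes, and group levels use a prior count of 2. No 2 libraries of a group agreed within counting noise. Named were the first member of each role group, the 3 highest and 3 lowest per comparison, departures over 1 and close pairs; other named values were chosen after they were seen. The members, lists and part of the tests were chosen with earlier results of these data known. Promoters are from RefSeq (GRCm38.p6), a build other than that of the counts. One gene of the pathway lists is not reported here.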

Additional observations from a re-analysis of the deposited data

Results flagged for a closer look

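The responses of several members differed between genotypes by the interaction test (edgeR quasi-likelihood, adjusted p below 0.05), each larger in wild type than in knockout. For GM, 15 members passed, against 0.939% of all genes. The log2 differences were 4.35 for Ifit1, 4.04 for Ifit3, 3.996 for Cmpk2, 3.90 for Ifit3b, 3.58 for Isg15, 3.44 for Rsad2 and 2.29 for Phf11d. For MDP, 24 members passed, against 7.97% of all genes. The log2 differences were 3.06 for Ifit3, 2.96 for Ifit2, 2.77 for Cmpk2, 2.43 for Ifit3b, 2.18 for Rsad2, 1.84 for Phf11b, 1.69 for Isg15, 1.22 for Phf11d, 1.16 for Oas1a, 1.08 for Trim30d and 0.81 for Ifitm3. The level in water enters each difference, and it was lower in wild type than in knockout for these genes other than Phf11d, at 9.33 CPM in wild-type and 7.39 CPM in knockout water.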

How the results depend on the processing

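All members kept a positive response in wild type and for MDP in knockout under every alternative, but counts past the threshold moved. Percentages are the share of all genes that passed in the same fit. The fit of all 18 libraries passed 34 members for GM (4.72%) and 46 for MDP (24.7%) against water in wild type. In knockout it passed 0 for GM (0.0194%) and 6 for MDP (2.76%). It passed 27 for knockout against wild type (33.1%) and 25 for the GM response between genotypes (1.86%). DESeq2 passed 25 for GM against water (2.3% of all genes) and 9 for GM against MDP (16.9%) in wild type, 22 for knockout against wild type (23.3%) and 25 for the GM response (2.05%). Voom with group variances passed 10 for GM against MDP (12.8%) and 16 for knockout against wild type (13.9%). Without a filter on low counts 13 passed for GM in knockout (5.25%), 9 for the GM response (0.483%) and 10 for the MDP response (3.58%). With 17 libraries, without wild-type water replicate 3 (chosen after seeing the data), 33, 22 and 27 passed for GM in wild type, knockout against wild type and the GM response, against 21.7%, 32.9% and 7.18% of all genes.

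Same-numbered libraries did not deviate together in every pair (r = -0.21, 0.57 and 0.54 for GM and water in wild type). Between the wild-type GM and wild-type MDP libraries r was 0.03, 0.12 and 0.14, and each same-numbered pair was the best match. No other pair of groups that was examined matched at every number. Pairs outside the comparisons, such as knockout GM with knockout MDP, were not examined. Deviations from a mean of 3 libraries depend on each other, so these values cannot decide whether the numbers pair the samples. With the replicate block 21 members passed for GM (1.07% of all genes) and 20 for MDP (2.51%) in wild type, and 0 for knockout against wild type (5.53%).

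Leaving out each library gave 0 to 12 members for GM (0% to 1.81% of all genes) and 8 to 46 for MDP (1.21% to 35.5%) against water in wild type. For GM against MDP it gave 0 to 38 (1.35% to 29%). In knockout it gave 1 to 36 for GM (5.39% to 8.01%) and 40 to 45 for MDP (15.4% to 19.2%). For knockout against wild type it gave 0 to 28 (2.13% to 46.7%). The GM response gave 7 to 20 (0.46% to 3.34%) and the MDP response 10 to 38 (4.19% to 26.3%). Several members changed sign under some alternative. Among them, Uba7 in knockout against wild type ranged from -0.341 to 0.392. Ly6e in GM against MDP ranged from -0.463 to 0.067 and Mx2 with GM in knockout from -0.382 to 0.215. Among the members followed by name in each comparison, directions reversed for 5 values, given next. Phf11d, GM against MDP, was -0.009 with DESeq2 and RLE factors, -0.039 with upper-quartile factors, -0.010 without a filter and -0.075 to 0.089 on leaving out a library. On leaving out a library, Slfn5 with GM in knockout was -0.133 to 0.102, Mx1 with GM in knockout -0.293 to 0.002, Ifi44 in knockout against wild type -0.892 (adjusted p = 0.00139, without wild-type water replicate 3) to 0.226 (without wild-type water replicate 2) and Ifitm3 in the same comparison -0.102 to 0.21. The cause of these changes was not tested. The ligand genes lay at 0 or at single counts, did not pass the filter and were not tested for differences. Ifnb1 was at 0 counts in each wild-type water library and at 6, 4 and 7 counts with MDP.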
